A study of Homo sapiens with 2 samples.

Results

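The 10 genes described here are known for the identity of colon epithelium. They were measured in HCT116, a human cell line from a colorectal carcinoma grown in McCoy's 5a medium with serum, treated with CB-5083 at 1 µM for 8 h or with DMSO, its solvent, for the same time. CB-5083 is an inhibitor of the VCP product p97, which extracts ubiquitinated proteins for degradation. The genes are CDX1, CDX2, HNF4A, HNF4G, GATA6, ELF3, EHF, ATOH1, VIL1 and LGALS4. They were taken by name from the series table, and all 10 had a row among its 21115 genes. Polyadenylated RNA was sequenced as 1 library per treatment, so differences have no replicate check and no test was possible. All intervals cover counting error only.

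The identity of intestinal epithelium rests on a small set of transcription factors that hold gut genes active. CDX1 and CDX2 are caudal homeobox factors of hindgut patterning, HNF4A and HNF4G are nuclear receptors of enterocyte genes, and GATA6 is a zinc finger factor of endoderm and crypt cells. ELF3 and EHF are ETS factors restricted to epithelia, and ATOH1 is the basic helix-loop-helix factor that commits cells to the secretory lineage. VIL1 encodes villin, the actin bundler of the brush border, and LGALS4 encodes galectin-4, a lectin of enterocyte membranes.

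The data showed an uneven identity programme in HCT116 cells and modest differences with CB-5083. Of the 10 genes, 6 reached a mean of at least 1 CPM (estimated counts relative to library size, scaled with TMM factors between the libraries), and the 4 others were at or near 0 in both libraries. Among all 21115 genes, 11964 reached that mean and 3110 had no count in either library. Whether the identity genes differ from other genes in this was not tested. EHF and ELF3 were each 1.66-fold higher with CB-5083, HNF4G was 1.65-fold lower and GATA6 2.27-fold lower. CDX2 and HNF4A, both under 5 CPM, had counting intervals that held a fold of 1. Calls of higher or lower required a log2 ratio of at least 1 in size, computed on CPM + 1, and a level of 5 CPM in at least 1 library. By that rule none of the 10 genes was higher and none lower. Of 9543 genes that reached 5 CPM, 7.22% were higher and 4.91% lower. Only EHF, ELF3, HNF4G and GATA6 reached 5 CPM, HNF4G and GATA6 only with DMSO. The median log2 ratio of the 6 measured genes was 0.01, against 0.04 over all 11964 genes of at least 1 CPM. In bulk RNA, fewer cells that express a gene and less RNA per cell cannot be told apart.

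**Figure D1:**
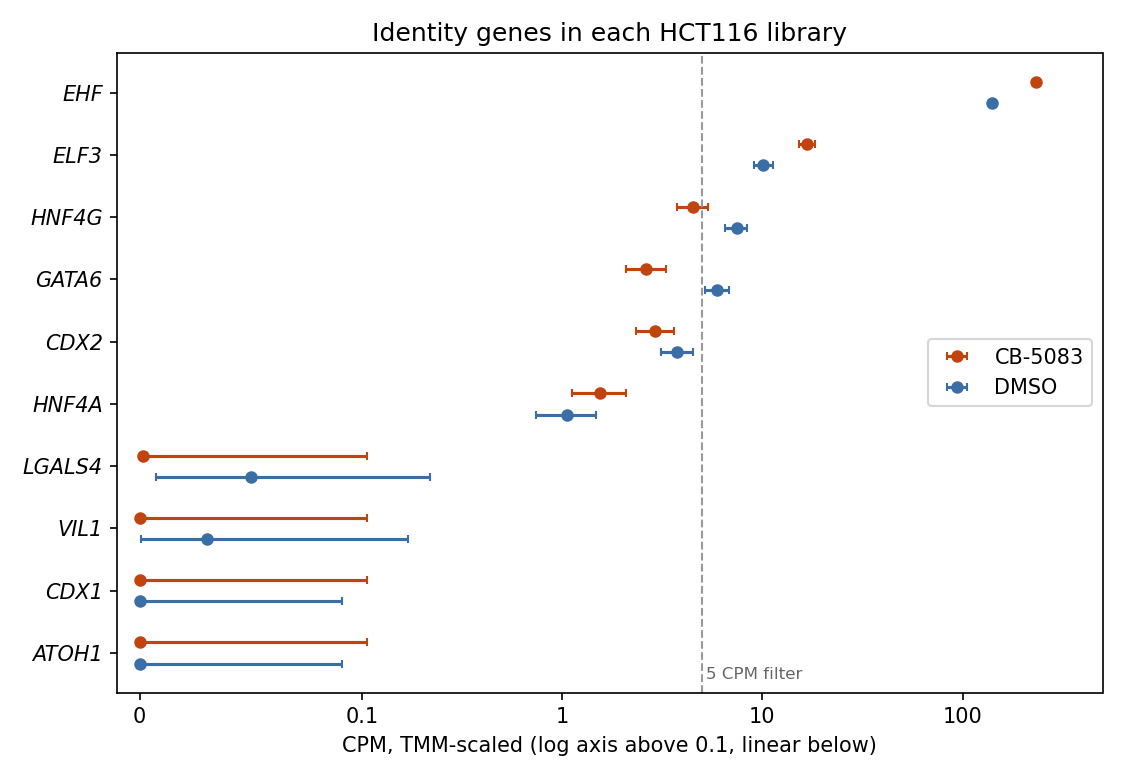
Level of each of the 10 identity genes in CPM (horizontal axis, logarithmic above 0.1 and linear below it) with CB-5083 (orange, upper point) and with DMSO (blue, lower point). Bars are 95% Poisson intervals of the count in 1 library per treatment, ending at 3 counts where the estimated count rounds to 0, and the dashed line marks 5 CPM. EHF lay at 233 CPM with CB-5083 and 140 CPM with DMSO, far above the other 9 genes, and CDX1, ATOH1, VIL1 and LGALS4 lay near 0.

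The CB-5083 library held 31997682 estimated counts and the DMSO library 29273698, and for a gene without counts the upper limit, 3 counts, was 0.106 CPM with CB-5083 and 0.0910 CPM with DMSO. HSPA5, the main chaperone of the endoplasmic reticulum, was at 21303 CPM with CB-5083 and 1282 CPM with DMSO. With CB-5083, 689 genes were higher and 469 lower at 2-fold. Scaling by library totals in place of TMM shifted the median log2 ratio of all measured genes by -0.31, and calls were then 371 higher and 994 lower. Ratios also varied with level: the median log2 ratio was -0.22 in 2818 genes of 1 to 5 CPM, -0.11 in 2929 genes of 5 to 20 CPM, 0.12 in 4060 genes of 20 to 100 CPM and 0.30 in 2157 genes above that. CDX2, HNF4A and GATA6 fell in the lowest of these ranges by their mean, HNF4G and ELF3 in the next, and EHF in the highest. The part of level in their ratios was not tested. The labelled tissue was checked against its markers. EPCAM, an epithelial adhesion molecule, was at 501 CPM with CB-5083 and 433 CPM with DMSO, whereas the intestinal cadherin CDH17 was at 0.176 CPM with CB-5083 and 0.140 CPM with DMSO. Among the identity genes themselves CDX1, ATOH1, VIL1 and LGALS4 were at or near 0, so the cells held only part of the set. The summed level of 15 fibroblast and mesenchymal markers was 14.3 CPM with CB-5083 and 12.5 CPM with DMSO. That of 12 leukocyte and endothelial markers was 2.43 CPM with CB-5083 and 1.82 CPM with DMSO. PTPRC, CD3E, CDH5, COL1A2 and DCN were at 0 in both libraries. Of the first list 4 genes reached a mean of 1 CPM: ZEB1, COL1A1, VIM and ACTA2. ZEB1, the highest of them, was at 6.51 CPM with CB-5083 and 5.67 CPM with DMSO. COL1A1 was at 3.48 CPM with CB-5083 and 2.52 CPM with DMSO. Of the second list only CD68 did, at 2.01 CPM with CB-5083 and 1.30 CPM with DMSO.

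EHF, on chromosome 11 from 34642587 to 34684834 in hg19, was the most abundant of the identity genes. It was at 233 CPM with CB-5083 and 140 CPM with DMSO, from 6625 estimated counts with CB-5083 and 4624 with DMSO. The CB-5083 library was the higher, and the 95% Poisson intervals of 228 to 239 CPM with CB-5083 and 136 to 144 CPM with DMSO did not overlap. The fold was 1.66 (95% exact counting interval 1.60 to 1.73), with a log2 ratio of 0.73. Of the 9543 tested genes, 87.5% had a lower ratio.

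ELF3, on chromosome 1 from 201977072 to 201986315, was at 16.8 CPM with CB-5083 and 10.1 CPM with DMSO, from 477 estimated counts with CB-5083 and 333 with DMSO. Here too the CB-5083 library was the higher and the intervals of both libraries did not overlap. The fold was 1.66 (1.44 to 1.92), with a log2 ratio of 0.68, and 86.1% of tested genes had a lower ratio. With library totals both ETS genes stood at 1.31-fold, with intervals of 1.26 to 1.36 for EHF and 1.14 to 1.51 for ELF3.

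The 250 bases before the annotated starts of these 2 genes are shown because both had the same fold. EHF has 2 annotated starts in the RefSeq table. The measured value of EHF covers 3 RefSeq transcripts and that of ELF3 covers 2, and any start outside these windows was not searched. The sequences are RefSeq's on GRCh38.p14, plus strand, written 5′ to 3′, and they lie at chr11:34624007-34624256 and chr11:34632316-34632565 for EHF and at chr1:202010337-202010586 for ELF3. Capitals mark matches to any of 7 short motifs searched on both strands: TTTATNG for CDX factors, CAAAGTNCA for HNF4, AGATAA for GATA factors, AGGAAGT for epithelial ETS factors, CTTTGAT for TCF and LEF factors of WNT signalling, TGATGNAA for ATF4 with C/EBP factors and TGACGTG for XBP1 and ATF6.
EHF, upstream start: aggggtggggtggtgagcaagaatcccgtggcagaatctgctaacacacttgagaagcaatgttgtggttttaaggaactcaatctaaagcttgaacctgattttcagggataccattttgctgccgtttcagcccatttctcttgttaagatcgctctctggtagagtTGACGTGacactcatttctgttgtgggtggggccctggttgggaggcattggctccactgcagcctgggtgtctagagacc
EHF, downstream start: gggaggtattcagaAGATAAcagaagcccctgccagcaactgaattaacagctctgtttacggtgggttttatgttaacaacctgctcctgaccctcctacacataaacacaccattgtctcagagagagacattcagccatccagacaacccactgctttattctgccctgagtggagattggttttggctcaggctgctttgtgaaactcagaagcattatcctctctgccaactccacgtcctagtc
ELF3: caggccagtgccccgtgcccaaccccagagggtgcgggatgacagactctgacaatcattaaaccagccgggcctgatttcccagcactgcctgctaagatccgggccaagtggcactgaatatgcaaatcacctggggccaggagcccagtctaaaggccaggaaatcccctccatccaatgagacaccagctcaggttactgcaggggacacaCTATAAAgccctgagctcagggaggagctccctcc

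The upstream EHF start held TGACGTG 81 bases before it, a motif present in 1.68% of 35116 RefSeq windows of the same length. The downstream EHF start held AGATAA 236 bases before it (9.17% of windows). ELF3 held CTATAAA, the reverse complement of the CDX pattern, 35 bases before its start (8.93% of windows), and those letters include TATAAA, the TATA box sequence. No motif was shared by the windows of the 2 genes, and none of the 3 windows held the ETS motif (7.01% of windows). A match describes letters in a window and shows no binding.

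GATA6, on chromosome 18 from 19749415 to 19782227 in hg19, had the lowest ratio of the measured identity genes. It was at 2.63 CPM with CB-5083 and 5.95 CPM with DMSO, from 74.6 estimated counts with CB-5083 and 196 with DMSO. The CB-5083 library was the lower, and its Poisson interval of 2.08 to 3.31 CPM did not overlap that of 5.14 to 6.84 CPM with DMSO. Without a pseudocount it was 2.27-fold lower (1.72 to 2.98). On CPM + 1 the log2 ratio was -0.94, just short of the threshold, and 5.68% of tested genes had a lower ratio. GATA6 did pass the threshold under 3 of the alternatives. It passed with library totals, where 10.3% of tested genes were lower, with the deposited scaling, where 6.11% were lower, and with a pseudocount of 0.1 CPM, where 6.06% were lower. Since GATA6 reached 5 CPM only with DMSO, that filter kept it because of the library in which it was higher.

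The window before the GATA6 start is shown as the counterpart to those of EHF and ELF3; none of the 7 motifs matched in it, so it carries no capitals. It lies at chr18:22169339-22169588 on GRCh38.p14, plus strand, and 64.4% of its bases are G or C, against 58.4% in the ELF3 window and 47.6% before the downstream EHF start.
GATA6: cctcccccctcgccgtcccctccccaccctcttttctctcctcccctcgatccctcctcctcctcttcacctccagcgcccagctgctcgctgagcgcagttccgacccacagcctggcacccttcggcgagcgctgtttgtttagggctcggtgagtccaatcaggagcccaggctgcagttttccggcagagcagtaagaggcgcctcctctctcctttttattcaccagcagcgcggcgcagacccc

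HNF4G, on chromosome 8 from 76320182 to 76479061, was at 4.50 CPM with CB-5083 and 7.43 CPM with DMSO, from 128 estimated counts with CB-5083 and 245 with DMSO. The DMSO library was the higher, with an interval of 6.53 to 8.43 CPM against 3.76 to 5.35 CPM with CB-5083. HNF4G was 1.65-fold lower with CB-5083 (1.33 to 2.06), with a log2 ratio of -0.62, and 11.7% of tested genes had a lower ratio. Like GATA6 it passed the 5 CPM filter only through the DMSO library. With library totals it was 2.09-fold lower (1.68 to 2.61), while its log2 ratio on CPM + 1 was -0.91.

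HNF4A, on chromosome 20 from 42984440 to 43060030, was low in both libraries, at 1.55 CPM with CB-5083 and 1.06 CPM with DMSO, from 44 estimated counts with CB-5083 and 35 with DMSO. The intervals of 1.12 to 2.08 CPM with CB-5083 and 0.740 to 1.48 CPM with DMSO overlapped. The fold of 1.46 (0.914 to 2.34) held 1, so no difference was detectable at this depth. Its 6 RefSeq transcripts, which start from 2 separate promoters, were summed in 1 value and cannot be told apart. HNF4A and HNF4G lay on opposite sides of 1: the fold of HNF4A was 2.40 times that of HNF4G (1.43 to 4.07), a ratio that does not depend on the scaling between libraries. HNF4A supplied 25.6% of the estimated counts of the HNF4 pair with CB-5083 and 12.5% with DMSO. Those shares are not corrected for transcript length. Per median transcript length the share of HNF4A was 48.5% with CB-5083 and 28.1% with DMSO.

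CDX2, on chromosome 13 from 28536277 to 28543317, was at 2.92 CPM with CB-5083 and 3.76 CPM with DMSO, from 83 estimated counts with CB-5083 and 124 with DMSO. The CB-5083 library was the lower, but the intervals of 2.33 to 3.62 CPM with CB-5083 and 3.13 to 4.49 CPM with DMSO overlapped. The 1.29-fold lower value (0.968 to 1.72) had an interval that held 1 on the TMM scale. With library totals CDX2 was 1.63-fold lower (1.23 to 2.18) and with the deposited scaling 1.37-fold lower (1.03 to 1.83), both with intervals above 1. Its paralogue CDX1, on chromosome 5 from 149546343 to 149564121, had no count in either library, which allows a level of up to 0.106 CPM with CB-5083 and 0.0910 CPM with DMSO by the limit of 3 counts.

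ATOH1, on chromosome 4 from 94750077 to 94751142, likewise had no count in either library. Of the structural products, VIL1, on chromosome 2 from 219283837 to 219314248, had no count with CB-5083 and 1 count with DMSO (0.0303 CPM). LGALS4, on chromosome 19 from 39292310 to 39303740, was listed at 0.05 estimated counts with CB-5083 and 1.65 with DMSO, or 0.00176 CPM with CB-5083 and 0.0501 CPM with DMSO. The quantification tool can divide reads that fit several genes, so its values need not be whole. Where the fractions of LGALS4 came from was not tested. All 4 genes lay under the level that 3 counts give, so no fold is given for them. Differences in these genes were not detectable at this depth.

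**Figure D2:**
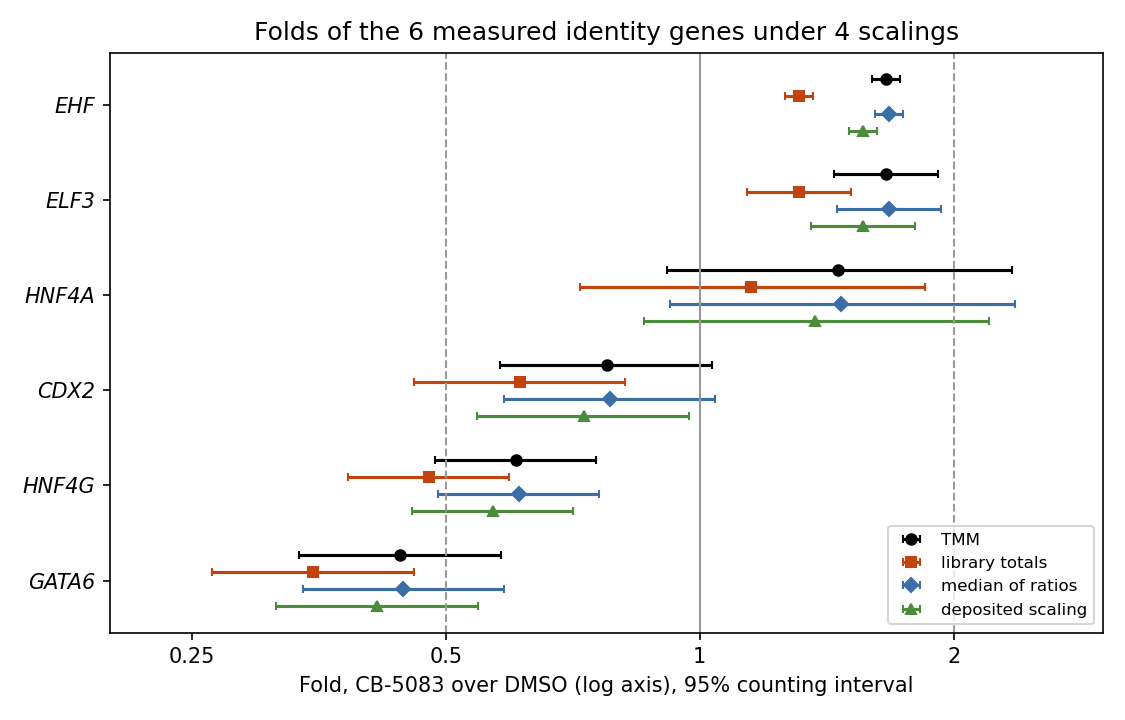
Fold of the 6 measured identity genes, CB-5083 over DMSO (horizontal axis, logarithmic), under 4 scalings between the libraries; bars are 95% exact counting intervals and dashed lines mark 2-fold. EHF, ELF3 and HNF4A lay above 1 and CDX2, HNF4G and GATA6 below 1 under all 4 scalings, with intervals that held 1 for HNF4A under each and for CDX2 under TMM and the median of ratios.

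At a 1.5-fold threshold on CPM + 1, EHF and ELF3 were higher and HNF4G and GATA6 lower, so that each of the 4 identity genes that reached 5 CPM passed it. At that threshold 17.4% of all tested genes were higher and 12.5% lower. Because the filter admitted HNF4G and GATA6 through DMSO alone, their count lends the direction no support.

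Comparing the identity genes with each other removes the scaling between libraries. Among the 15 pairs of the 6 measured genes, 10 had a ratio of folds whose 95% exact conditional interval excluded 1. Over all pairs of genes with a mean of at least 1 CPM the share was 73.9%, by normal intervals, which gave the same count of 10 among the identity genes. The count is therefore near the background, and each interval compares these 2 libraries and not the conditions. The variation of ratios with level also stays in these values: GATA6, CDX2 and HNF4A lay in the lowest range of level, where the median log2 ratio of all genes was -0.22, and EHF in the highest, where it was 0.30. Its part was not tested. ELF3 and EHF had the same fold to within counting error, with a ratio of 1.00 (0.863 to 1.16). ELF3 made up 6.72% of the estimated counts of that pair both with CB-5083 and with DMSO. GATA6 stood farthest from them, with a fold 3.74 times below that of EHF (2.85 to 4.97) and 3.74 times below that of ELF3 (2.75 to 5.13). HNF4G was 2.74 times below EHF (2.20 to 3.43), and CDX2 2.14 times below it (1.60 to 2.87). GATA6 and HNF4G did not separate from each other (ratio 1.36 for HNF4G over GATA6, 0.958 to 1.95), nor did CDX2 and HNF4G (1.28, 0.887 to 1.85). HNF4A did not separate from EHF (0.877, 0.549 to 1.41).

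**Figure D3:**
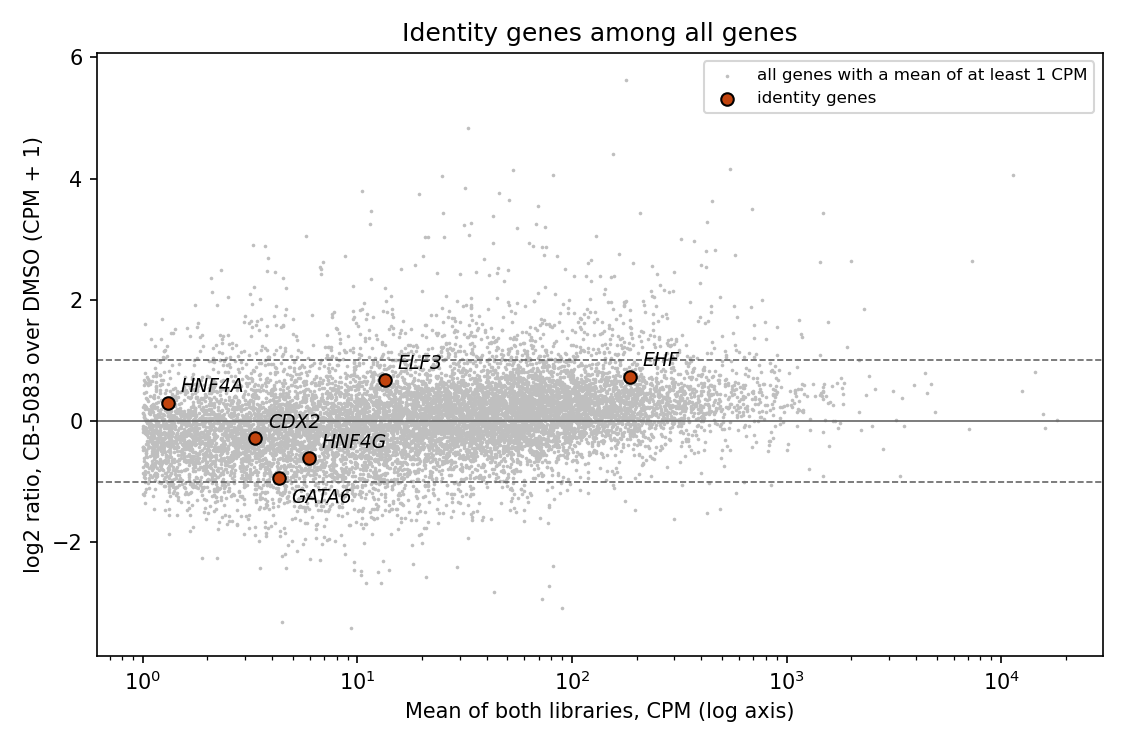
Log2 ratio of CB-5083 over DMSO on CPM + 1 (vertical axis) against the mean of both libraries in CPM (horizontal axis, logarithmic) for the 11964 genes with a mean of at least 1 CPM (grey), with the 6 measured identity genes in orange. Dashed lines mark 2-fold; all 6 identity genes lay between them, with GATA6 at -0.94 nearest to a line.

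Levels were compared between genes per transcript length, as TPM (transcript abundance relative to the library's sum) computed within each library from GENCODE transcript lengths. In the CB-5083 library EHF stood at 218 TPM and ELF3 at 12.5 TPM, followed by HNF4G at 2.52, HNF4A at 2.38, CDX2 at 1.70 and GATA6 at 1.64 TPM. In the DMSO library EHF stood at 168 TPM and ELF3 at 9.59 TPM, followed by HNF4G at 5.33, GATA6 at 4.76, CDX2 at 2.80 and HNF4A at 2.09 TPM. EHF and ELF3 were thus first and second in both libraries, and EHF held 91.3% of the summed TPM of the 6 genes with CB-5083 and 87.3% with DMSO. GATA6 had the lowest value of the 6 with CB-5083 but lay above CDX2 and HNF4A with DMSO. Neighbours in the lower part of the order were close: HNF4G and HNF4A with CB-5083 (2.11 to 3.0 and 1.73 to 3.19 TPM), HNF4A and CDX2 with CB-5083 (1.73 to 3.19 and 1.35 to 2.11 TPM), CDX2 and GATA6 with CB-5083 (1.35 to 2.11 and 1.30 to 2.07 TPM), HNF4G and GATA6 with DMSO (4.69 to 6.05 and 4.12 to 5.48 TPM) and CDX2 and HNF4A with DMSO (2.33 to 3.34 and 1.45 to 2.90 TPM) overlapped. HNF4A and GATA6 overlapped with CB-5083 as well, so the last place in that library was not settled at this depth. The transcripts of HNF4A run from 1192 to 6445 bases, so its TPM depends on which are used.

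Genes known as targets of these factors were mostly at or near 0. Of 16 CDX2 targets analysed, 14 averaged under 1 CPM and 8 had no count in either library, among them MUC2, the main intestinal mucin, and GUCY2C, the intestinal guanylyl cyclase receptor. Of 18 HNF4A targets, 17 averaged under 1 CPM and 9 had no count. Among all 21115 genes, 9151 averaged under 1 CPM and 3110 had no count in either library, and a difference of the targets from them was not tested. The gene above 5 CPM on both lists was ACSL5, an acyl-CoA synthetase of enterocytes, at 153 CPM with CB-5083 and 176 CPM with DMSO (log2 ratio -0.20). KRT20, a keratin of differentiated colonocytes, averaged just above 1 CPM, at 1.02 CPM with CB-5083 and 1.37 CPM with DMSO. None of the tested genes of either list, 1 each, passed 2-fold.

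Markers of differentiated cell types were mostly low too. Of 22 colonocyte and enterocyte markers 5 were measured, none was higher and none lower of the 3 tested, and the median log2 ratio was -0.23. CA2, a cytosolic carbonic anhydrase, was at 20.4 CPM with CB-5083 and 29.6 CPM with DMSO. Of 21 goblet and secretory markers 5 were measured. Of the 3 tested, KLF4, a transcription factor of goblet cell maturation, was higher at 84.4 CPM with CB-5083 and 23.8 CPM with DMSO (3.54-fold, 3.27 to 3.84). GFI1, which acts after ATOH1 in the secretory lineage, was at 2.15 CPM with CB-5083 and 5.31 CPM with DMSO, lower by a margin that was lost with median-of-ratios scaling or a pseudocount of 5 CPM. Of 15 enteroendocrine markers 3 were measured and the 1 tested, SCG2, which encodes a secretory granule protein, was at 25.4 CPM with CB-5083 and 32.9 CPM with DMSO, within 2-fold. As background to these counts, 7.22% of all tested genes were higher and 4.91% lower.

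Partners of VIL1 in the brush border were partly expressed. Of 22 analysed 11 were measured and 8 tested, with 1 higher, 1 lower and 6 neither, and a median log2 ratio of -0.34. For comparison, 7.22% of all tested genes were higher and 4.91% lower, and a difference from them was not tested. EZR, which encodes ezrin, the linker of microvillar actin to the membrane, was the most abundant at 2085 CPM with CB-5083 and 1356 CPM with DMSO (1.54-fold, 1.52 to 1.56). BAIAP2L1, which encodes a membrane-bending protein, had a fold of 2.18 (2.06 to 2.31), while library totals put its log2 ratio at 0.77, within 2-fold. CALML4, a calmodulin-like protein of the link between microvilli, was 3.47-fold lower, at 5.35 CPM with CB-5083 and 18.5 CPM with DMSO. Among 9 other galectins 4 genes were tested and none passed 2-fold, though LGALS3BP, which encodes a binding partner of galectin-3, was lower with library totals (log2 ratio -1.03). LGALS3, galectin-3, was at 86.2 CPM with CB-5083 and 56.8 CPM with DMSO (1.52-fold, 1.43 to 1.61).

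Other transcription factors of gut and endoderm passed 2-fold in both directions. Of 25 analysed, 15 were measured with a median log2 ratio of -0.79, and of 10 tested 5 were lower, 2 higher and 3 neither (6 lower and 2 higher with library totals, 3 lower with a pseudocount of 5 CPM). Among all tested genes 7.22% were higher and 4.91% lower, and with library totals 10.3% were lower. Whether this list differs from other genes was not tested. Of the 5 lower genes, HES1 and GFI1 reached 5 CPM only with DMSO, where they were higher, and without them 3 were lower and 2 higher. HES1, the Notch effector that represses ATOH1, was at 2.32 CPM with CB-5083 and 10.5 CPM with DMSO (4.51-fold lower, 3.46 to 5.96). SOX9, a factor of crypt progenitors, was at 47.6 CPM with CB-5083 and 118 CPM with DMSO (2.48-fold lower, 2.33 to 2.64). The lower genes also included GFI1, given above, and TCF7L2, the main WNT effector of intestine, which was singled out after its values were seen and was at 71.6 CPM with CB-5083 and 165 CPM with DMSO. Both higher genes were Krüppel-like factors. KLF5, a factor of proliferating crypt cells, was at 381 CPM with CB-5083 and 90.9 CPM with DMSO (4.19-fold, 4.03 to 4.37), and KLF4 is given above.

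The wider ETS family was divided. Of 21 analysed, 15 were measured with a median of 0.22 (-0.11 with library totals), and of 14 tested 2 were higher, 2 lower and 10 neither. The shares among all tested genes were 7.22% higher and 4.91% lower, and a difference of the family from them was not tested. ETS1 was at 130 CPM with CB-5083 and 18.5 CPM with DMSO (7.02-fold, 6.44 to 7.66) and ETV5, a target of ERK signalling, at 279 CPM with CB-5083 and 70.4 CPM with DMSO (3.96-fold, 3.78 to 4.15). ETV1 was at 9.71 CPM with CB-5083 and 32.9 CPM with DMSO (3.39-fold lower, 2.97 to 3.88) and ETV6, a repressor of the family, at 5.10 CPM with CB-5083 and 16.0 CPM with DMSO (3.13-fold lower, 2.60 to 3.79). EHF and ELF3, at log2 ratios of 0.73 and 0.68, lay between these extremes.

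General epithelial genes included only higher genes among those that passed 2-fold. Of 27 analysed 24 were measured with a median of 0.39 (0.06 with library totals), and of 21 tested 5 were higher, none lower and 16 neither (3 higher with library totals). Over all tested genes 7.22% were higher and 4.91% lower. The median log2 ratio of all genes was 0.12 at 20 to 100 CPM and 0.30 above that. The part of level in this list was not tested. CDH1, which encodes E-cadherin, was at 243 CPM with CB-5083 and 66.7 CPM with DMSO (3.65-fold, 3.48 to 3.83). ESRP1, an epithelial splicing regulator, was at 607 CPM with CB-5083 and 184 CPM with DMSO (3.30-fold, 3.20 to 3.40). CLDN7 and CLDN4, claudins of tight junctions, were 2.21-fold (2.07 to 2.36) and 2.29-fold (1.87 to 2.81) higher, CLDN4 being named after its value was seen. Both were within 2-fold with library totals (log2 ratios 0.79 and 0.74). CLDN4 was at 10.1 CPM with CB-5083 and 4.42 CPM with DMSO, so the 5 CPM filter admitted it only through the library where it was higher. MAL2, a protein of apical transport, was at 812 CPM with CB-5083 and 472 CPM with DMSO, within 2-fold. Not all genes of the list lay on the higher side. GRHL2, among the markers fixed for cell types, was at 11.2 CPM with CB-5083 and 15.4 CPM with DMSO (log2 ratio -0.43). ESRP2, named after its value was seen, was at 25.2 CPM with CB-5083 and 27.9 CPM with DMSO (log2 ratio -0.14).

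Stem cell markers differed in both directions, though only lower genes passed 2-fold. Of 18 analysed 13 were measured with a median of -0.34, and of 11 tested 4 were lower and none higher (4 lower and 2 higher at 1.5-fold). Of the 4 lower genes AXIN2 and EPHB2 reached 5 CPM only with DMSO, where they were higher. LGR5, the receptor that marks crypt stem cells, had no count with CB-5083 and 1 count with DMSO. AXIN2, a WNT feedback gene, was at 0.774 CPM with CB-5083 and 17.97 CPM with DMSO, RNF43, a ligase that removes WNT receptors, at 16.1 CPM with CB-5083 and 52.0 CPM with DMSO, and EPHB2, a guidance receptor of crypt cells named after its value was seen, at 1.90 CPM with CB-5083 and 6.09 CPM with DMSO, while SOX9 is given above. CD44, a hyaluronan receptor of crypt cells and the most abundant of these markers, was at 634 CPM with CB-5083 and 804 CPM with DMSO. PROM1 and ALCAM, surface glycoproteins named after their values were seen, lay above 1, with folds of 1.92 (1.79 to 2.06) and 1.59 (1.53 to 1.64). At 2-fold, 7.22% of all tested genes were higher and 4.91% lower, and whether these lists differ from other genes was not tested.

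**Figure D4:**
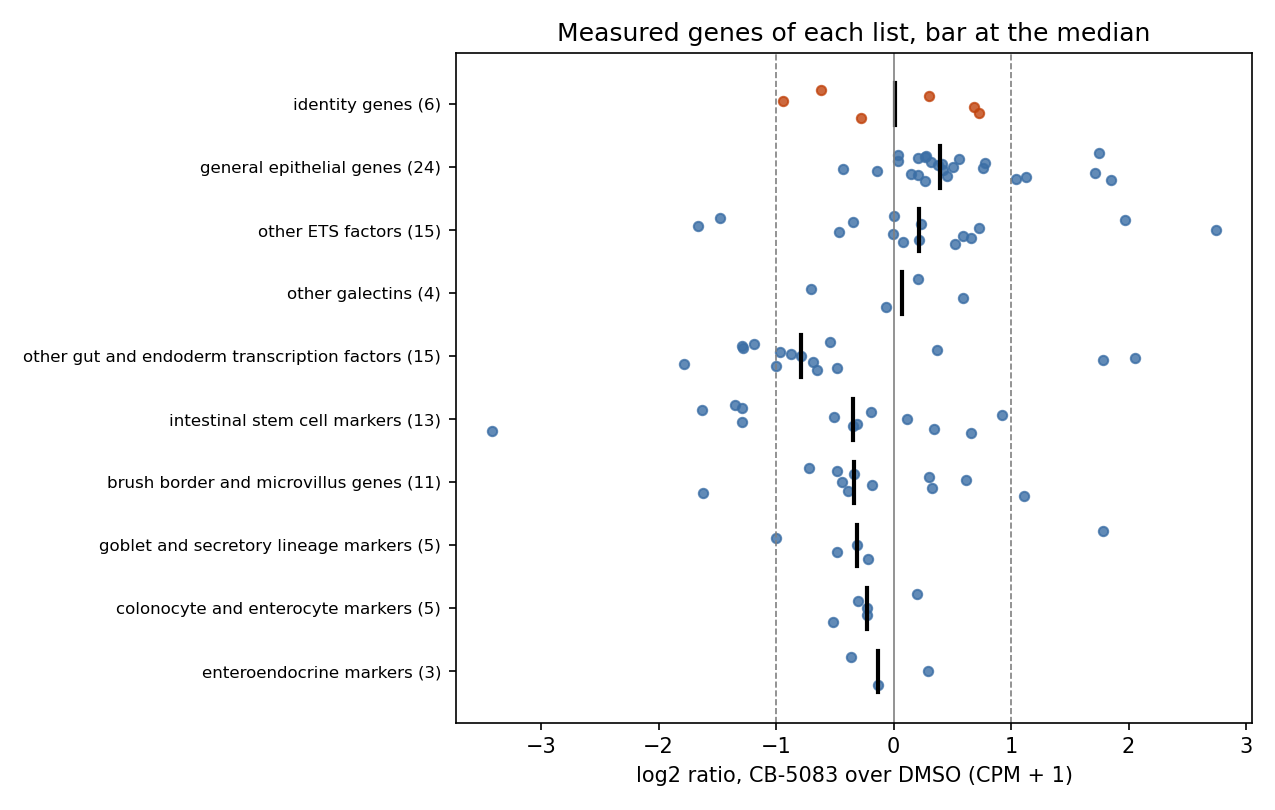
Log2 ratio of CB-5083 over DMSO on CPM + 1 (horizontal axis) for each measured gene of the identity genes (orange, top row) and of 9 other lists (blue), with the number of measured genes in brackets. Black bars are medians and dashed lines mark 2-fold; the 6 identity genes lay between -0.94 and 0.73 around a median of 0.01.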

How the data were processed

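Polyadenylated RNA of HCT116 cells was sequenced from stranded mRNA libraries, 1 per treatment, per the labels' protocols. Each deposited value is a signal: an estimated count for 1 gene, rescaled by the authors library by library. RSEM 1.2.0 and hg19 are named per the submitters' processing notes. Neither an aligner nor the use of strand in counting is given in the sources used here. From the values, the 75th percentile over all genes was 999.9 with CB-5083 and 999.7 with DMSO. Dividing by the commonest low step, 1.18 with CB-5083 and 1.08 with DMSO, gave back estimated counts, of which 56.0% with CB-5083 and 55.2% with DMSO were whole within 0.02, so they are estimates, and with 1 library per treatment no count model was fitted. Intervals treat the estimates, rounded to whole numbers, as counts. The design had assumed unscaled values. 1 row without a value was left out.

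CPM used TMM factors of 0.888 for CB-5083 and 1.13 for DMSO, with trims of 30% on ratios and 5% on means. Log2 ratios compare CPM + 1 with CB-5083 to CPM + 1 with DMSO, a pseudocount that shrinks the differences of low genes. Folds use no pseudocount, with exact (Clopper-Pearson) intervals at 95%. Ratios of folds have exact conditional intervals, and over all pairs of measured genes normal intervals on the log ratio. TPM used the median transcript length in GENCODE release 29, found for 16305 genes including all 10 members. Only lengths and no coordinates were taken from that release. Promoter windows came from RefSeq for 7 of the 10 genes. Symbols of 15 lists matched 238 of 263 genes directly and 2 by accession, and 25 genes are on more than 1 list. The members and lists were chosen with earlier results of these data known. Named genes are the members, 4 markers of treatment, the markers fixed for cell types and, per list, up to 4 measured genes with the largest ratios plus the most expressed; some genes counted in the lists are not reported here by name. The scripts were checked on simulated data. Alternatives to scaling, pseudocount, filter and threshold were run 1 at a time. The work used scipy 1.17.1, numpy 2.4.6, matplotlib 3.10.9, Python 3.11.15 and pandas 2.3.3.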

Additional observations from a re-analysis of the deposited data

How the results depend on the processing

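No paired analysis was possible because each treatment was 1 library, and for the same reason none could be left out. The count of identity genes lower at 2-fold was 0 as reported and 1 (GATA6) with library totals, the deposited scaling or a pseudocount of 0.1 CPM. At 1.5-fold 2 were higher and 2 lower. None was higher at 2-fold under any alternative. The median log2 ratio of the 6 measured genes, 0.01, was -0.21 with library totals, -0.048 with the deposited scaling and -0.017 with a pseudocount of 5 CPM. Over all genes, library totals gave 371 higher and 994 lower, a pseudocount of 5 CPM gave 198 lower against 469, and the 1.5-fold threshold gave 1660 higher and 1195 lower. The deposited scaling gave 584 higher and 584 lower. Of 30 recomputed ratios of the 6 measured identity genes, 26 moved by no more than their counting interval, and the 4 others were ELF3 and EHF with library totals (0.36 and 0.39), EHF with the deposited scaling (0.64) and GATA6 with a pseudocount of 5 CPM (-0.52). For the other lists, 11 recomputed counts differed from the reported ones by over 1.5 times or from or to 0, and 229 lay within that limit, not all of them equal; 23 recomputed medians moved by 0.1 or more on the log2 scale or changed sign, and 42 moved by less. Depth limits CDX2 and HNF4A, with 35 to 124 estimated counts, and CDX1, ATOH1, VIL1 and LGALS4, with at most 1.65.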

Other observations

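The windows before the starts of the other identity genes in the RefSeq table were searched with the same motifs. CDX2 held a match to the CDX pattern 181 bases before its start and to AGATAA, on the reverse strand, 119 bases before it. HNF4A held AGATAA 26 bases before the first of its 2 annotated starts and no motif before the second. ATOH1 held CTTTGAT, the TCF and LEF motif, 148 bases before its start, a motif found in 2.26% of 35116 windows, and LGALS4 held the ETS motif on the reverse strand 211 bases before its start. These matches are descriptions of letters only, and ATOH1 and LGALS4 were at or near 0 in both libraries.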
